A study of Mus musculus with 6 samples.

Results

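Izumo1r, Thy1, Ly6a, Ly6c1, Ly6e, Cd24a, Cd48, Cd52 and Art2b encode proteins held on the outer face of the plasma membrane by a glycosylphosphatidylinositol (GPI) anchor. Their transcripts were measured in regulatory T cells (Treg) recovered after bone marrow transplantation. The 9 genes were taken by symbol from a table of 29199 genes, and all 9 passed the filter on low counts, as did 18321 genes in all. They were selected on their levels and fold changes between the groups reported here, so their differences between groups are given as a description and not as a test of that choice.

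A GPI anchor is a glycolipid that is built in the endoplasmic reticulum and attached by a transamidase to the end of a protein whose C-terminal signal has been removed. The finished protein has no cytoplasmic tail and gathers in lipid rafts of the plasma membrane. T cells carry many such proteins. Among them, the product of Izumo1r, folate receptor 4 (FR4), is known for its high level on Treg and on anergic CD4+ T cells.

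All libraries came from WT Treg and differed in the genotype of the conventional CD4+ T cells (Tconv) that had been injected with them. Treg had been isolated from B6 Foxp3-Thy1.1 mice, in which a Thy1.1 reporter marks cells that express Foxp3, and expanded for 3 days with beads coated with anti-CD3 and anti-CD28 antibodies, IL-2 (500 IU/mL) and TGFb (0.1 ng/mL), then kept for 5 to 7 days more. They were transferred with naive Tconv into lethally irradiated B6 hosts that were given B6 and B6D2F1 bone marrow, and were sorted from the spleen 3 weeks later as CD4+ Thy1.1+ cells bearing H-2Kb but not H-2Kd. In 3 libraries the Tconv were WT (Treg with WT Tconv), and in 3 libraries they lacked HP1a, a heterochromatin protein (Treg with HP1a KO Tconv). The HP1a KO donors carried a floxed Hp1a allele deleted by CMV-cre, which acts in the whole body, on a mixed 129/Sv and C57BL/6 background, with littermates as controls. Donor mice were 6 to 12 weeks old. The sources used here do not say whether a library held cells of 1 or of several mice, so the spread between libraries may be technical in part.

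Library totals ranged from 87421755 to 119078882 estimated counts. The 9 Treg markers examined, Foxp3, Il2ra and Ctla4 among them, were detected in all 6 libraries and summed to 4657 to 5756 CPM (counts per 1e+06 counts). Single libraries are named by the genotype of their Tconv and their replicate number. WT Tconv replicate 3 stood apart in other blood cell transcripts. Its red cell list summed to 6433 CPM against 398.7 to 737.3 CPM in the other 5 libraries, its neutrophil list to 1880 CPM against 43.3 to 228.4 CPM, and its monocyte or macrophage list to 182.6 CPM against 13.6 to 48.3 CPM. Most of the last sum was Lyz2, which neutrophils also express, and without Lyz2 it was 14.8 CPM against 6.21 to 10.4 CPM. None of the genes on those lists was at 0 in all libraries. HP1a KO Tconv replicate 2 stood apart in single genes of the Treg list, in both directions. It had 146.5 CPM of Cd3e and 153.6 CPM of Foxp3, each the lowest of the 6 libraries, as were its Cd4 and Il2ra. Its Tnfrsf18 (578.2 CPM) and Tnfrsf4 (568.4 CPM) were each the highest. The sum of its Treg list, 5240 CPM, lay within the range of the other 5 libraries. Values without one of these libraries are given beside results that rest on it.

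The Ly6 genes of the set lie close together on chromosome 15, and the counts of Ly6c1 have to be read beside those of its neighbour Ly6c2. The coding sequences of both genes have 396 bases, of which 9 differ (97.7% identical). The first 300 bases are shown from the GRCm39 genome with the GENCODE gene models, because they show how few bases tell a read of Ly6c1 from a read of Ly6c2. Capitals mark the 7 bases of this stretch at which the genes differ. The sequences are given on the minus strand from coding exons between chr15:74917251-74920360 for Ly6c1 and chr15:74980392-74983516 for Ly6c2.
Ly6c1: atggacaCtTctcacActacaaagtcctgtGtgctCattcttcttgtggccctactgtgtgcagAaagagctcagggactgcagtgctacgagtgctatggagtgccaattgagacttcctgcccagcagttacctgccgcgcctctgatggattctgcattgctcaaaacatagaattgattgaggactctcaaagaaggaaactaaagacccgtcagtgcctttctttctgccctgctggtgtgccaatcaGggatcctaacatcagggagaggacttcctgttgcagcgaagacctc
Ly6c2: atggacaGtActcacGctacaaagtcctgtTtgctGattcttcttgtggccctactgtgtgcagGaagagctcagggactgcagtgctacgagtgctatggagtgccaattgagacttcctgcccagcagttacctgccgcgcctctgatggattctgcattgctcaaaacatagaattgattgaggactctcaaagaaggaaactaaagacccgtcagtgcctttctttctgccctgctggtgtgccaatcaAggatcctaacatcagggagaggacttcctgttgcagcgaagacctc
Most of the differing bases stand near the start, where the signal peptide is encoded. A long run without any capital follows, and reads from that run fit both genes.

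RefSeq promoter entries were held for 4 of the 9 genes, namely Izumo1r, Ly6c1, Cd48 and Art2b. No entry was found for Thy1, Ly6a, Ly6e, Cd24a and Cd52. The 250 bases before the RefSeq start of each gene were matched to GRCm39 without mismatch and searched on both strands for 4 motifs of factors known in T cells, GAAA, 2 bases of any kind and GAAA for IRF factors, TTCNNNGAA for STAT factors, TGACTCA for AP-1 and TGTTTAC for forkhead factors. Among all 32851 RefSeq promoter windows of this length, 2.98%, 7.02%, 4.46% and 3.17% held these motifs, respectively. The window of Art2b held the AP-1 motif, and the windows of the other 3 genes held none of these letters. The Art2b window lies inside the gene as GENCODE draws it (chr7:101226177-101234809, minus strand), and not before its outermost start. The windows are given without the bases that GENCODE assigns to exons of the same gene, with the AP-1 match of Art2b in capitals on the strand of the gene.
Izumo1r, chr9:14815246-14815313, minus strand: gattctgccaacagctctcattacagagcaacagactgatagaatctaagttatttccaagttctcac
Ly6c1, chr15:74920687-74920936, minus strand: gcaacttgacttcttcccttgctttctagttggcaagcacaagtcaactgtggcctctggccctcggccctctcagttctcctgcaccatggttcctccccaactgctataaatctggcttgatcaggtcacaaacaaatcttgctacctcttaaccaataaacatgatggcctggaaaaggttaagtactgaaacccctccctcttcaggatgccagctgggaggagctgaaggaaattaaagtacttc
Cd48, chr1:171509310-171509559, plus strand: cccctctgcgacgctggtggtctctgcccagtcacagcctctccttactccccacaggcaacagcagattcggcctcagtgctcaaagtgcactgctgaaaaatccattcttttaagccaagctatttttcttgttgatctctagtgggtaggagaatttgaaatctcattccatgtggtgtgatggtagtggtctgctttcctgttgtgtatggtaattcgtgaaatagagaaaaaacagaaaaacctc
Art2b, chr7:101230387-101230618, minus strand: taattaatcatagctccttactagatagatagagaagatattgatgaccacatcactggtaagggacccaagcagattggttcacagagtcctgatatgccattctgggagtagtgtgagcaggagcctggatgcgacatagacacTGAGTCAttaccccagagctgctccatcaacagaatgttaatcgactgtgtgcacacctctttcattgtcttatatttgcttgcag
For Izumo1r, 182 bases of the RefSeq window fell in the first exon of GENCODE models and were left out, so the stretch shown has 68 bases. The windows of Cd48 and Art2b also hold exons of long noncoding RNA genes on the opposite strand, A630035G10Rik and Gm57204.

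The level of each gene was first compared with that of the others after division by the length of its exons, expressed as TPM, the share of each gene's count per base among 28854 genes with a known length, times 1e+06. Cd52, which encodes a very short, heavily glycosylated peptide of lymphocytes, had the highest level, 3226 TPM ± 510 (SD, n = 6 libraries). Ly6e followed with 850.0 ± 68, Cd48 with 752.8 ± 99.8, Ly6a with 472.5 ± 77.4 and Izumo1r with 445.8 ± 51.6. Thy1 had 272.3 ± 39.4, Art2b 141.0 ± 32.1 and Ly6c1 7.92 ± 2.63. Cd24a, at 112.5 ± 213, was set by a single library, with 547.6 in WT Tconv replicate 3 and 15.6 to 35.6 in the other 5 libraries. In this order, Cd52 did not overlap with Ly6e, Izumo1r did not overlap with Thy1, and Thy1 did not overlap with Art2b over the 6 libraries. Ly6e with Cd48, Cd48 with Ly6a and Ly6a with Izumo1r overlapped in their ranges, as did Art2b with Cd24a. Apart from Cd24a and Ly6c1, the members lay between the 93.8th (Art2b) and the 99.9th percentile (Cd52) of the genes tested, and Ly6c1 was at the 46.7th percentile. When the longest transcript stood in for the exons, 5 of the 9 genes kept their place and Izumo1r moved up to place 3, ahead of Cd48, Thy1 and Ly6a.

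**Figure D1:**
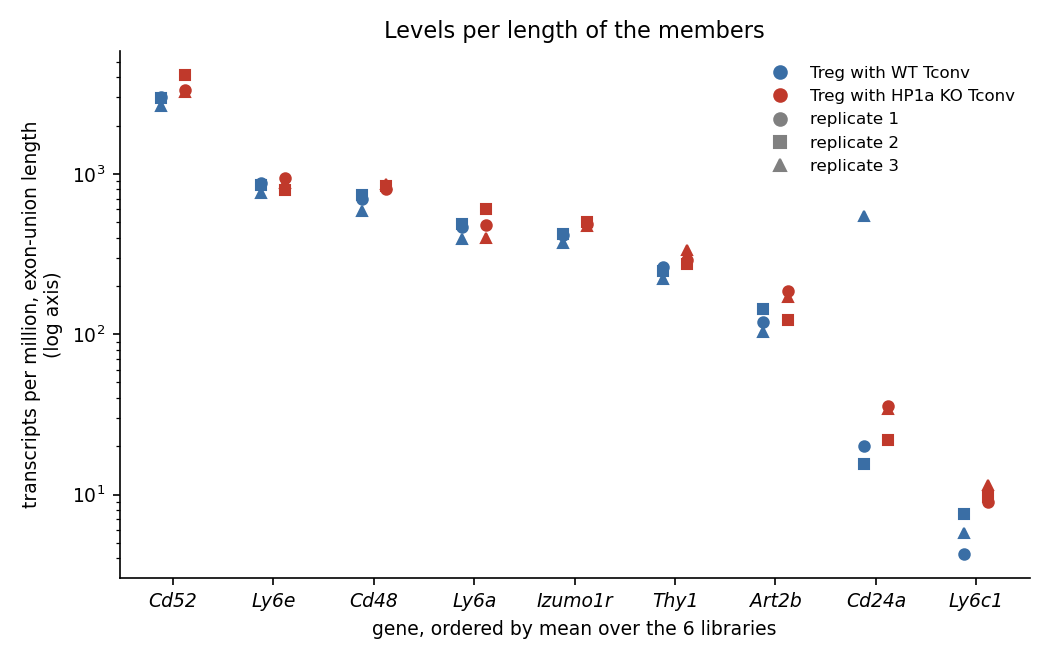
Levels of the 9 genes in TPM by exon length (log axis), with a point for each library and genes in the order of their mean. Cd52 is highest in all 6 libraries, Ly6c1 is lowest in all 6, and a single WT Tconv point of Cd24a, at 547.6, lies far from its other 5 points.

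The comparison of Treg with HP1a KO Tconv and Treg with WT Tconv asked whether WT Treg differed according to the Tconv they had met. Levels are CPM on library totals scaled by TMM, and differences are log2 fold changes of HP1a KO over WT Tconv from edgeR with their standard errors (SE). Izumo1r, Thy1, Ly6c1, Cd48 and Cd52 were higher in every Treg with HP1a KO Tconv library than in any Treg with WT Tconv library, which makes 5 of 9 genes, where 11.5% of all genes tested were separated in that direction. Since the genes were picked with these values known, nothing is read from that share. With edgeR's quasi-likelihood test and Benjamini-Hochberg adjustment over all genes, 0 of 9 members had an adjusted p under 0.05, as did 0 of 18321 genes (0%). An unadjusted p under 0.05 was reached by the same 5 genes, where 6.98% of all genes reached it in that direction. DESeq2 gave 1 of the 8 members with an adjusted p a value under 0.05, Ly6c1, where 1.31% of genes with an adjusted p were called higher and 4.35% in either direction. Because RNA was measured from pooled cells, fewer cells of a type and less RNA per cell cannot be told apart in any of these differences.

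**Figure D2:**
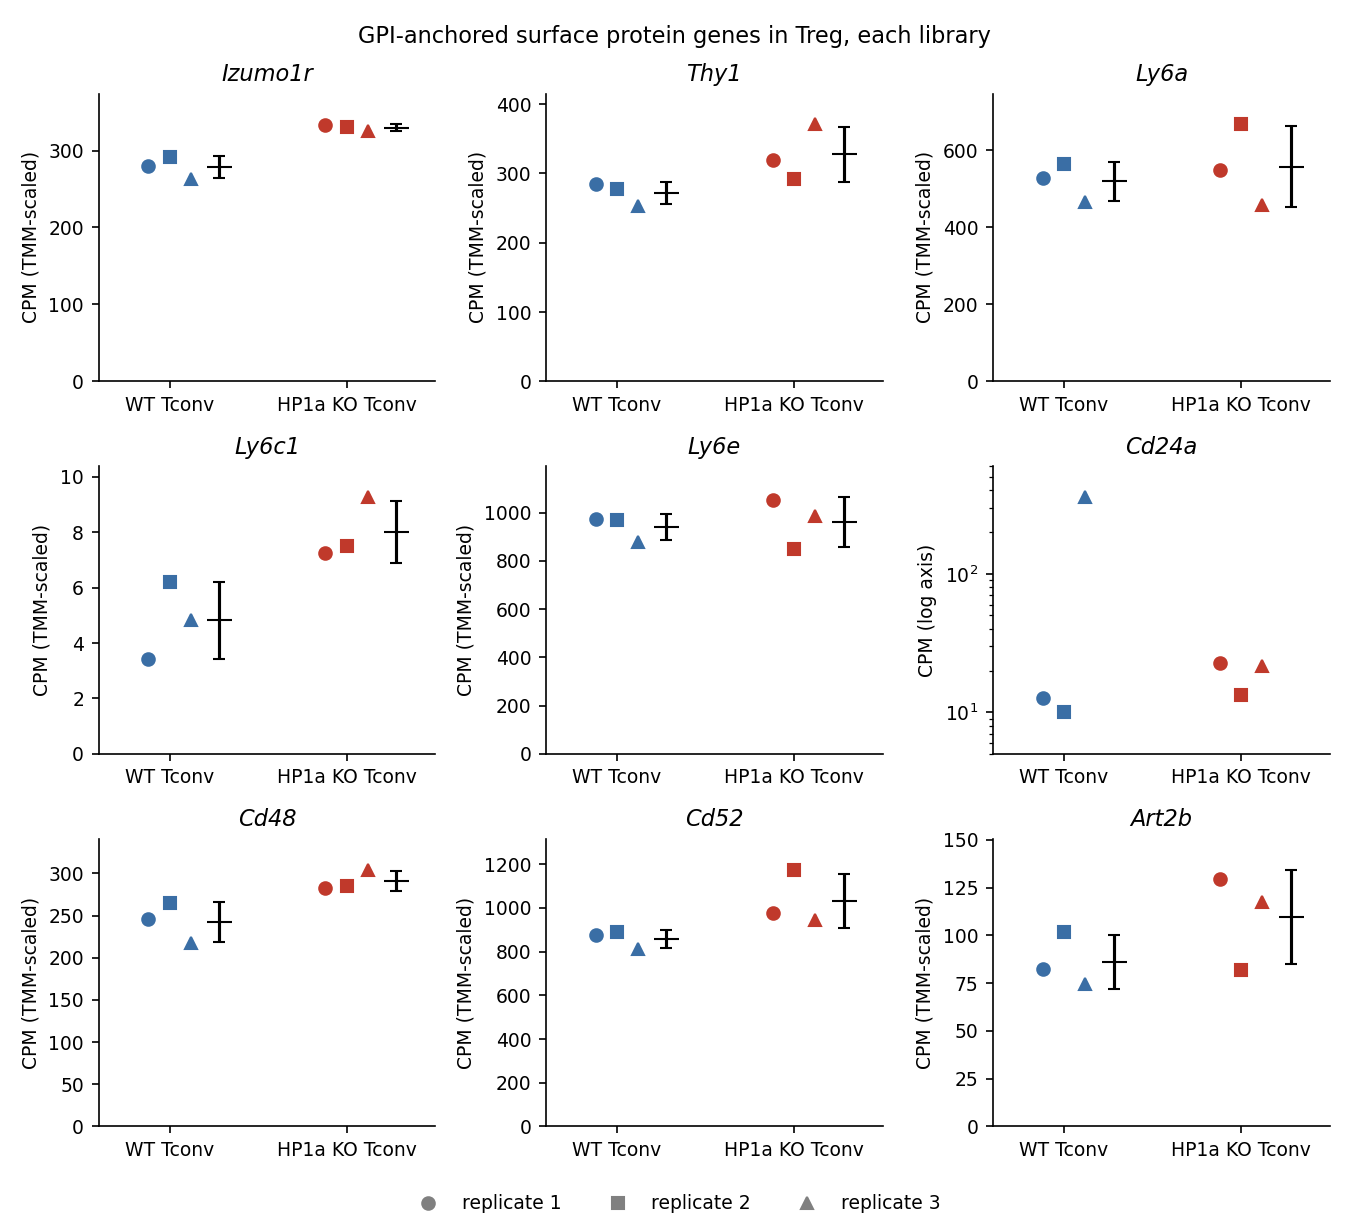
CPM of each gene by library (replicates 1, 2 and 3 as circles, squares and triangles), with the mean ± SD of 3 libraries drawn in black beside each group. The axes start at 0 except for Cd24a, which has a log axis and no mean. The groups are apart for Izumo1r, Thy1, Ly6c1, Cd48 and Cd52 and overlap for Ly6a, Ly6e, Cd24a and Art2b.

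Izumo1r (ENSMUSG00000031933, GRCm39 chr9:14797110-14815245, minus strand) encodes FR4, which is related to folate receptors and serves on the egg as the receptor of the sperm protein IZUMO1. Replicates 1, 2 and 3 of Treg with WT Tconv had 279.5, 292.0 and 263.1 CPM, and those of Treg with HP1a KO Tconv had 333.6, 330.5 and 324.9 CPM. The groups did not overlap, and the HP1a KO libraries were the tighter group, with a coefficient of variation of 1.34% against 5.20%. The means were 278.2 ± 14.5 and 329.7 ± 4.42 CPM (SD, n = 3 each), a ratio of 1.18. The log2 fold change was 0.24 (SE 0.0658), with an edgeR adjusted p of 0.211 and a DESeq2 adjusted p of 0.0693. It stayed between 0.20 and 0.29 over the 12 alternatives, including 0.21 without WT Tconv replicate 3, and edgeR and DESeq2 adjusted p ranged from 0.0693 to 0.437.

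The genes most like Izumo1r were sought by the root mean square difference between log2 CPM centred on each gene's mean, over 6 libraries and 8847 genes with a mean of at least 10 CPM. They were Arhgap4 (0.0166), Limk2 (0.0223), Lrrc61 (0.0229), Neu1 (0.0237) and Hps1 (0.0252). Arhgap4 had 366.8, 388.1 and 351.0 CPM with WT Tconv and 446.9, 449.2 and 439.5 CPM with HP1a KO Tconv. All 5 had the lowest value in WT Tconv replicate 3, as Izumo1r did. They were picked for likeness over these same 6 libraries, so nothing is read from that. Among the members, Cd48 was nearest to Izumo1r by the same measure (0.0610), followed by Cd52 (0.0962) and Thy1 (0.114), whereas Cd24a was farthest (1.83). Ly6c1, below 10 CPM, was not compared in this way.

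Nt5e encodes CD73, the GPI-anchored enzyme that forms adenosine from AMP and that is stained together with FR4 to define anergic CD4+ T cells. Its levels did not separate the groups, with 434.7, 414.6 and 403.3 CPM in Treg with WT Tconv and 429.8, 401.4 and 305.3 CPM in Treg with HP1a KO Tconv. Nt5e had a log2 fold change of -0.14 (SE 0.122), with an edgeR adjusted p of 0.634. HP1a KO Tconv replicate 3 was the lowest library, and the log2 fold change without it was -0.0058.

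Thy1 (ENSMUSG00000032011, chr9:43954332-43959880, plus strand) encodes a small immunoglobulin-like protein of T cells and neurons. Because the sorted cells bear a Thy1.1 reporter driven from Foxp3 beside their own Thy1, and Thy1.1 was part of the sorting gate, a count for Thy1 may hold reads of both. Treg with WT Tconv had 284.8, 276.9 and 253.7 CPM and Treg with HP1a KO Tconv had 319.2, 292.4 and 371.0 CPM. All HP1a KO values were above all WT values, and replicate 2 of the HP1a KO group lay closest to the WT libraries. Thy1 had a log2 fold change of 0.27 (SE 0.0975), with adjusted p of 0.275 in edgeR and 0.137 in DESeq2, and leaving out HP1a KO Tconv replicate 3 gave 0.17 and leaving out HP1a KO Tconv replicate 2 gave 0.34. Foxp3 itself had 200.1, 221.8 and 209.2 CPM with WT Tconv and 227.9, 153.6 and 251.7 CPM with HP1a KO Tconv, a log2 fold change of 0.0049 (SE 0.178, edgeR adjusted p 0.994) that was 0.19 without HP1a KO Tconv replicate 2. The libraries took the same order for Thy1 and Foxp3 in the HP1a KO group, but not in the WT group, where replicate 1 was the highest for Thy1 and the lowest for Foxp3.

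Cd48 (ENSMUSG00000015355, chr1:171509573-171532826, plus strand) encodes an adhesion protein of the SLAM family that binds CD2 and CD244 on other lymphocytes. It had 246.0, 264.6 and 217.1 CPM in Treg with WT Tconv and 282.6, 285.1 and 304.6 CPM in Treg with HP1a KO Tconv, without overlap. Cd48 had a log2 fold change of 0.26 (SE 0.0849), with adjusted p of 0.242 in edgeR and 0.109 in DESeq2. WT Tconv replicate 3 was the lowest of the 6 libraries, and the log2 fold change without it was 0.19. Cd2 lay between 661.3 and 725.1 CPM in all libraries, with a log2 fold change of 0.03 (SE 0.067, edgeR adjusted p 0.851). Cd244a, the gene of CD244, lay between 0.52 and 1.62 CPM, with a log2 fold change of 0.04 (SE 0.44, edgeR adjusted p 0.934).

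Cd52 (ENSMUSG00000000682, chr4:133809759-133822401, minus strand) shares 14.4% of its exonic bases with the opposite strand of Crybg2. Treg with WT Tconv had 877.1, 889.2 and 810.9 CPM and Treg with HP1a KO Tconv had 974.7, 1176 and 947.0 CPM, again without overlap. Its log2 fold change was 0.27 (SE 0.0975), with adjusted p of 0.282 in edgeR and 0.138 in DESeq2. HP1a KO Tconv replicate 2 held the highest value, and the log2 fold change without it was 0.16.

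Ly6c1 (ENSMUSG00000079018, chr15:74915847-74920686, minus strand) encodes an Ly6C protein, known from monocytes and from some memory T cells. It was the least abundant member, with 330 to 819 counts per library. Levels were 3.43, 6.20 and 4.83 CPM in Treg with WT Tconv and 7.24, 7.51 and 9.28 CPM in Treg with HP1a KO Tconv. The groups did not overlap, with means of 4.82 ± 1.38 and 8.01 ± 1.11 CPM (SD, n = 3 each). For Ly6c1 the log2 fold change was 0.73 (SE 0.218), with adjusted p of 0.23 in edgeR and 0.0237 in DESeq2. Without WT Tconv replicate 3 the log2 fold change was again 0.73, and DESeq2 no longer called the gene (adjusted p 0.131).

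Ly6c2, whose longest shared stretch with Ly6c1 is 97.2% identical over 2677 bases, had 4.68, 3.68 and 19.6 CPM with WT Tconv and 6.36, 4.97 and 7.08 CPM with HP1a KO Tconv. WT Tconv replicate 3, the library high in red cell and neutrophil markers, held 47.9% of all Ly6c2 counts, and the log2 fold change of Ly6c2 went from -0.61 to 0.55 without it. The ratio of Ly6c1 to Ly6c2 was 0.246 in that library and 0.733 to 1.69 in the other 5, and the part of the other cell types in this ratio was not tested. The sum of both genes was 8.12, 9.88 and 24.5 CPM with WT Tconv and 13.6, 12.5 and 16.4 CPM with HP1a KO Tconv. Because the estimation shares out reads that fit both genes, the split between Ly6c1 and Ly6c2 is uncertain. Ly6c1 also shares a stretch of 335 bases, at 97.3% identity, with the far more abundant Ly6a, which had 316505 counts over the 6 libraries against 3721 for Ly6c1. Whether reads of Ly6a were counted for Ly6c1 was not tested. The sum separated the groups only when WT Tconv replicate 3 was left out.

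Ly6a (ENSMUSG00000075602, chr15:74863840-74869880, minus strand) encodes Sca-1, a marker of stem cells and of activated T cells that responds to interferon. Levels were 527.9, 564.1 and 465.4 CPM with WT Tconv and 548.7, 667.0 and 456.3 CPM with HP1a KO Tconv. The groups overlapped, with the highest and the lowest library both in the HP1a KO group. The log2 fold change was 0.10 (SE 0.142, edgeR adjusted p 0.773), and without HP1a KO Tconv replicate 2 it was -0.05. Ly6a shares 4.8% of its exonic bases with Gm28068 on the other strand.

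Ly6e (ENSMUSG00000022587, chr15:74826860-74847454, plus strand) encodes another interferon-responsive Ly6 protein, known as a restriction factor of coronaviruses and a marker of immature thymocytes. It had 971.9, 971.4 and 876.7 CPM in Treg with WT Tconv and 1051, 849.0 and 986.1 CPM in Treg with HP1a KO Tconv. The log2 fold change of 0.03 (SE 0.0954, edgeR adjusted p 0.897) was smaller than its error, and its sign turned when WT Tconv replicate 3 (-0.01) or HP1a KO Tconv replicate 1 (-0.02) was left out. Without HP1a KO Tconv replicate 2 it was 0.12. The libraries with the lowest and the highest level of Ly6e were both Treg with HP1a KO Tconv, as for Ly6a, but replicate 2 was the lowest for Ly6e and the highest for Ly6a.

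Art2b (ENSMUSG00000030651, chr7:101226177-101234809, minus strand) encodes ART2.2, an ecto-enzyme that transfers ADP-ribose from extracellular NAD to surface proteins of T cells. Its targets include the ATP-gated channel P2X7, to whose opening Treg are known to be sensitive. Art2b had 82.5, 101.9 and 74.5 CPM with WT Tconv and 129.5, 81.9 and 117.8 CPM with HP1a KO Tconv. Replicates 1 and 3 of the HP1a KO group were above all WT libraries and replicate 2 lay among them, giving a log2 fold change of 0.35 (SE 0.199, edgeR adjusted p 0.488). Without HP1a KO Tconv replicate 2 the log2 fold change was 0.52, and without HP1a KO Tconv replicate 1 it was 0.22. Its neighbour Art2a, which shares a stretch of 137 bases at 96.4% identity, had 15.1, 17.3 and 14.3 CPM with WT Tconv and 15.2, 19.1 and 12.6 CPM with HP1a KO Tconv. The ratio of Art2b to Art2a was 5.22 to 5.89 with WT Tconv, and 8.53, 4.29 and 9.38 with HP1a KO Tconv.

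P2rx7, the gene of the P2X7 channel, had 138.9, 173.4 and 130.6 CPM with WT Tconv and 208.7, 211.7 and 204.7 CPM with HP1a KO Tconv. The groups did not overlap, and replicate 2 of the HP1a KO group, which was low for Art2b, was the highest library for P2rx7. The log2 fold change was 0.50 (SE 0.104), with an adjusted p of 0.209 in edgeR and 0.00256 in DESeq2, where 1.31% of genes with an adjusted p were called higher. Without WT Tconv replicate 3 it was 0.42, with a DESeq2 adjusted p of 0.0502.

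**Figure D3:**
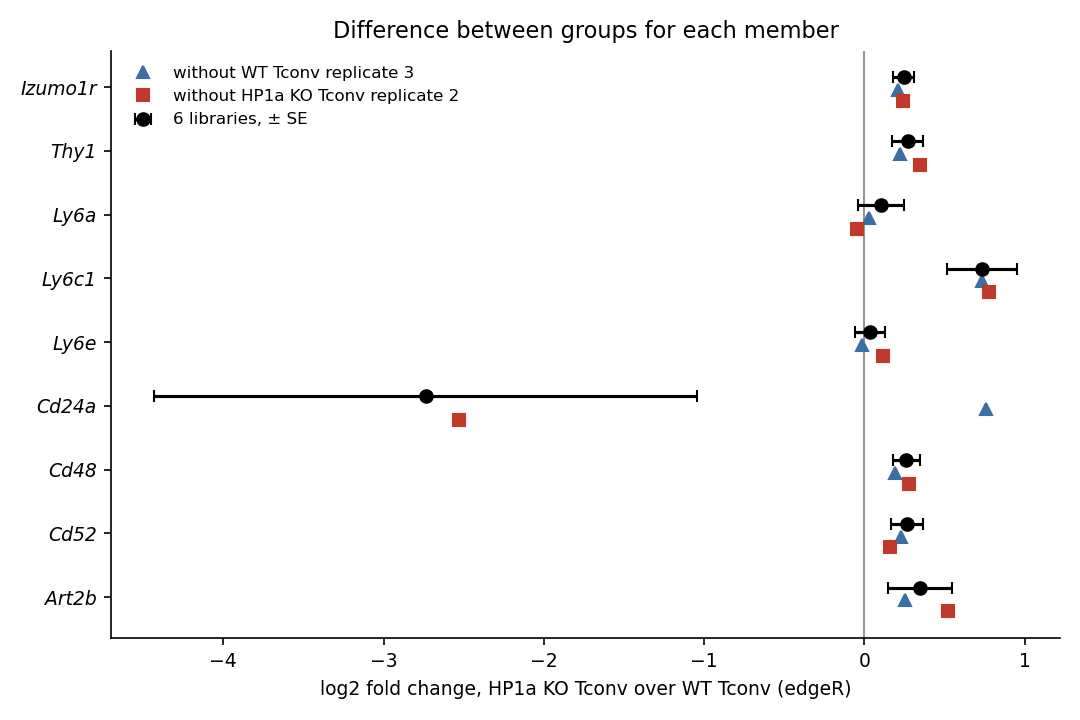
Log2 fold changes of the 9 genes (HP1a KO Tconv over WT Tconv, edgeR), from all 6 libraries with SE (black) and without either library that stood apart (blue and red). Cd24a goes from -2.74 to 0.76 when WT Tconv replicate 3 is left out, Ly6e and Ly6a turn sign near 0, and the other 6 genes stay above 0.

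Cd24a (ENSMUSG00000047139, chr10:43454280-43460264, plus strand) encodes a mucin-like protein abundant on red cells, neutrophils, B cells and immature thymocytes. Its counts were 1217, 968 and 42214 in replicates 1, 2 and 3 of Treg with WT Tconv and 2048, 1329 and 1914 with HP1a KO Tconv, which is 12.7, 10.0 and 360.6 CPM against 22.5, 13.3 and 21.7 CPM. WT Tconv replicate 3 thus held 85.0% of all its counts and had 16.01 times the level of the next library. Over all genes tested, 2.23% exceeded 5 times the mean of the other libraries there, and Cd24a was the only member to do so.

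With all libraries, the log2 fold change of Cd24a was -2.74 (SE 1.69, edgeR adjusted p 0.537). When WT Tconv replicate 3 was left out, the sign turned, to 0.76 in edgeR and 0.75 in DESeq2 (DESeq2 adjusted p 0.0664), and the remaining groups did not overlap. The count of separated members then became 6 of 9, beside 16.2% of all genes. The red cell and neutrophil lists were high in the same library, each with all 9 genes highest there. Their most abundant genes were Hbb-bs, at 3271 CPM against 186.0 to 347.3 CPM in the other libraries, and S100a9, at 745.2 CPM against 16.8 to 83.9 CPM. In the other 5 libraries, Cd24a was also highest in replicates 1 and 3 of Treg with HP1a KO Tconv. Their red cell list (711.8 and 737.3 CPM) was above that of the rest (398.7 to 411.8 CPM). So were their neutrophil list (195.2 and 228.4 against 43.3 to 101.4 CPM) and monocyte or macrophage list (41.8 and 48.3 against 13.6 to 20.2 CPM). Replicate 2 of that group had the lowest red cell sum, but more Cd24a (13.3 CPM) than WT Tconv replicates 1 and 2 (12.7 and 10.0 CPM). The part of these cell types in the Cd24a difference was not tested, with or without that library.

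**Figure D4:**
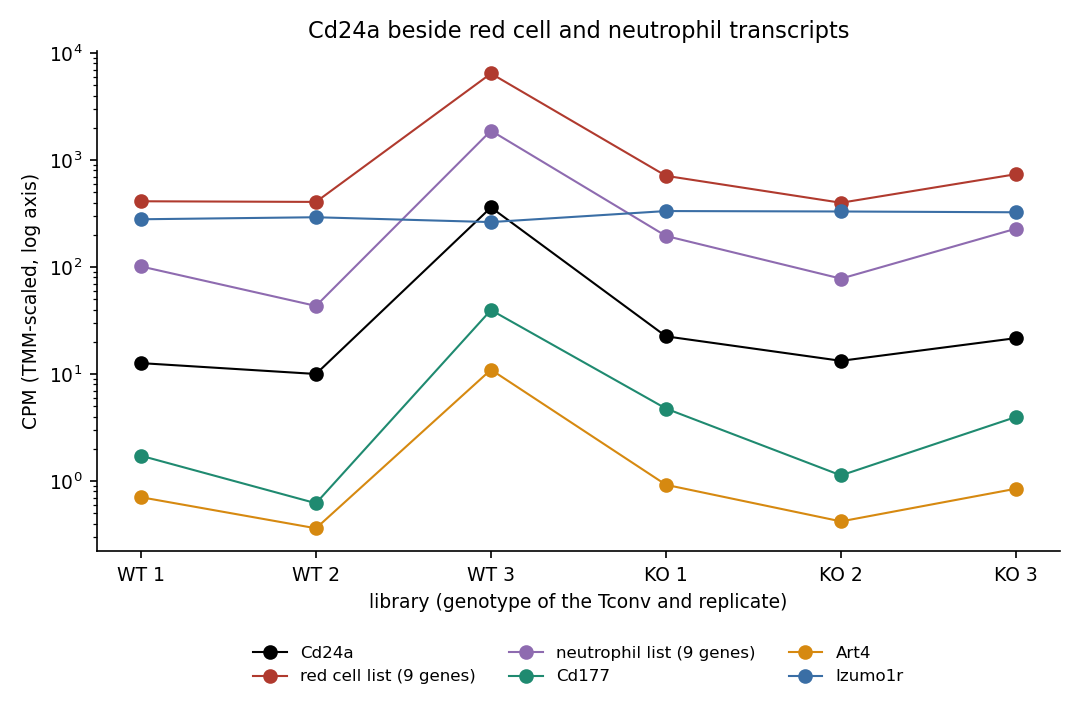
CPM (log axis) of Cd24a, Cd177, Art4 and Izumo1r and of the summed red cell and neutrophil lists in each library. Cd24a, Cd177, Art4 and both lists peak in WT Tconv replicate 3 (360.6 CPM for Cd24a), where Izumo1r, at 263.1 CPM, has its lowest value.

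That library was the lowest WT library for 7 of the 9 members (39.1% of all genes tested) and the lowest of all 6 for 5 of them (20.8% of all genes), Izumo1r, Thy1, Cd48, Cd52 and Art2b. Its Cd3e, 188.1 CPM, was also below the 218.8 and 221.4 CPM of the other WT libraries. From the same Treg list, Cd4, Il2ra, Ctla4, Ikzf2 and Tnfrsf18 were lowest there among the WT libraries too. Foxp3 (209.2 CPM), Tnfrsf4 (461.4 CPM) and Il10 (173.6 CPM) were not. The highest of the 6 libraries was a Treg with HP1a KO Tconv library for 8 of the 9 genes (51.8% of all genes). The members were chosen with these values known, so nothing is read from these shares. Leaving out WT Tconv replicate 3 lowered the log2 fold changes of Izumo1r, Thy1, Cd48, Cd52 and Art2b and kept each above 0, at 0.19 to 0.25.

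Summed over the 9 genes, the members held 0.328%, 0.331% and 0.327% of counts in Treg with WT Tconv and 0.367%, 0.380% and 0.357% in Treg with HP1a KO Tconv. The 95% Wilson intervals, which cover counting error only, reached up to 0.332% in the highest WT library and down to 0.356% in the lowest HP1a KO library. The group means were 0.329% ± 0.0019 and 0.368% ± 0.0116 (SD, n = 3 each), and the difference was 0.0399 percentage points. On totals scaled by TMM, as used for the CPM, the means were 0.333% ± 0.0045 and 0.364% ± 0.0087, and the difference was 0.0307 percentage points. Without Cd24a the means were 0.316% ± 0.0212 and 0.366% ± 0.0120, and WT Tconv replicate 3 held the lowest share of all, 0.292%. The median log2 fold change of the 9 genes was 0.26 (0.22 without WT Tconv replicate 3), beside -0.01 over all genes tested (0.01 without it). Because the 9 genes were chosen with these fold changes known, nothing is read from the difference in summed share or in median.

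Genes of the same families and pathways that were not members were described in the same way. Of 35 further Ly6/uPAR family genes, 25 were in the table and 11 were tested. Their median log2 fold change was -1.20 with all libraries and 0.46 without WT Tconv replicate 3, since 6 of the 11 exceeded 5 times the mean of the other libraries there. Cd177, a neutrophil surface protein, had 39.7 CPM in that library and 0.62 to 4.76 CPM in the other 5, with a log2 fold change of -2.09 (SE 1.79, edgeR adjusted p 0.648) that turned to 1.48 without that library. Ly6k, a testis-type Ly6 gene, lay between 1.25 and 2.17 CPM in all libraries. In this list edgeR called 0 of 11 genes and DESeq2 called 0 of the 1 gene to which it gave an adjusted p. An unadjusted edgeR p under 0.05 was reached by Ly6m alone (log2 fold change 1.21, 0.21 against 0.48 CPM on average). Over all genes, 6.98% reached it in that direction. Unadjusted DESeq2 p-values under 0.05 went to Ly6m (0.015) and Cd59b (0.0179), both named after their values were seen. Cd59b had a log2 fold change of -2.52 in DESeq2, and of -2.49 in edgeR, or -1.35 without WT Tconv replicate 3.

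Of 58 genes listed for other GPI-anchored proteins, 47 were in the table and 31 were tested. Their median log2 fold change was -0.0028, with 15 positive and 16 negative values, and 0.09 without WT Tconv replicate 3. edgeR called 0 of the 31, and DESeq2 called 0 of the 17 to which it gave an adjusted p. Besides Nt5e, the most abundant were Cpm, which encodes a carboxypeptidase (54.5 ± 2.93 against 65.5 ± 12.2 CPM, log2 fold change 0.26, or 0.12 without HP1a KO Tconv replicate 1, edgeR adjusted p 0.396), and Bst2, which encodes the virus-tethering protein tetherin (42.2 ± 2.15 against 42.1 ± 6.16 CPM, edgeR adjusted p 0.994). Unadjusted p-values under 0.05 were obtained for 4 genes, all named after their values were seen. Cd160 (0.41) and Rtn4rl1 (0.32) had positive log2 fold changes (6.98% of all genes), and H60b (-1.31) and Cd109 (-0.60) had negative ones (7.52% of all genes). H60b and Ulbp1, although on this list, encode stress ligands of NKG2D that are transmembrane proteins in the mouse. H60b had 1.70, 1.52 and 1.87 CPM with WT Tconv and 0.86, 0.53 and 0.67 CPM with HP1a KO Tconv. The edgeR adjusted p of H60b was 0.209. DESeq2 gave H60b an unadjusted p of 1.8e-05 but no adjusted p with all 6 libraries. Without WT Tconv replicate 3 the log2 fold change of H60b was -1.23 with a DESeq2 adjusted p of 0.0365, where 0.749% of genes with an adjusted p were called lower. Art4, the gene of a blood group protein of red cells, named for its level in a single library, had 11.0 CPM in WT Tconv replicate 3 and 0.36 to 0.92 CPM elsewhere, and its log2 fold change turned from -2.46 to 0.45 without that library. The part of red cell and neutrophil transcripts in the levels of Cd177 and Art4 was not tested.

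The machinery that makes the anchor was measured with 23 genes of synthesis, all of them tested, and the median log2 fold change was 0.05 (0.02 without WT Tconv replicate 3). edgeR called 0 of them, and DESeq2 called 1 of the 22 with an adjusted p (1.31% of all such genes were called higher), Dpm3, a subunit of the enzyme that supplies dolichol-linked mannose. Dpm3 had 5.94, 7.34 and 7.98 CPM with WT Tconv and 9.36, 14.2 and 9.88 CPM with HP1a KO Tconv, a log2 fold change of 0.65 (SE 0.188) with adjusted p of 0.223 in edgeR and 0.0232 in DESeq2, and without WT Tconv replicate 3 the log2 fold change was 0.75 with a DESeq2 adjusted p of 0.0548. Dpm1, the catalytic subunit of the same enzyme, went the other way, with 79.4, 96.1 and 86.5 CPM against 70.9, 77.5 and 66.9 CPM (log2 fold change -0.28, SE 0.0906, edgeR adjusted p 0.241). Pigb (0.32), Pigh (0.36) and Pigv (0.27), named after their values were seen, also had an unadjusted p under 0.05, which makes 4 genes higher (6.98% of all genes) and 1 lower (7.52%). Pigm, a mannosyltransferase, had a log2 fold change of -0.08 (SE 0.0899). Pigq, part of the enzyme that starts the anchor, had 102.5 CPM in WT Tconv replicate 3 and 36.9 to 48.5 CPM in the other 5 libraries, and its log2 fold change went from -0.48 to 0.10 without that library.

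The GPI transamidase, which joins the anchor to the protein, has 5 subunits, and all 5 log2 fold changes were positive, with a median of 0.14. None was called by edgeR (lowest adjusted p 0.376) or by DESeq2, and none had an unadjusted p under 0.05. Pigs had 55.7 ± 0.571 against 62.7 ± 5.69 CPM (SD, n = 3 each), Pigk 52.3 ± 1.501 against 54.3 ± 2.94 and Pigt 34.1 ± 1.48 against 35.7 ± 2.90. Of 14 genes for remodelling and transport of anchored proteins, 11 were tested, with a median of 0.03 (-0.04 without WT Tconv replicate 3) and 0 calls by either tool. The cargo receptors Tmed2 (-0.11), Tmed5 (-0.19) and Tmed9 (0.03) were the most abundant. Tmed5 had an unadjusted p under 0.05, as did Pgap1 (-0.25) and Mppe1 (0.19), which were named after their values were seen. That makes 1 gene higher (6.98% of all genes) and 2 lower (7.52%).

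Of 10 genes for receptors, ligands and targets of the members, P2rx7, Itgav and Cd2 were the most abundant. edgeR called 0 of the 10, and DESeq2 called P2rx7 higher and Itgav lower, where 3.03% of genes with an adjusted p were called lower. Itgav, the gene of the integrin subunit alpha-v that pairs to form receptors for Thy1, had 217.7, 225.3 and 218.0 CPM with WT Tconv and 188.5, 111.2 and 170.1 CPM with HP1a KO Tconv. Itgav had a log2 fold change of -0.49 (SE 0.189), with adjusted p of 0.319 in edgeR and 0.0415 in DESeq2. HP1a KO Tconv replicate 2 was the lowest library, and the log2 fold change without it was -0.30. Without WT Tconv replicate 3 it was -0.50, with a DESeq2 adjusted p of 0.187. The median over the 10 genes was 0.02 with all libraries and 0.25 without that library.

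**Figure D5:**
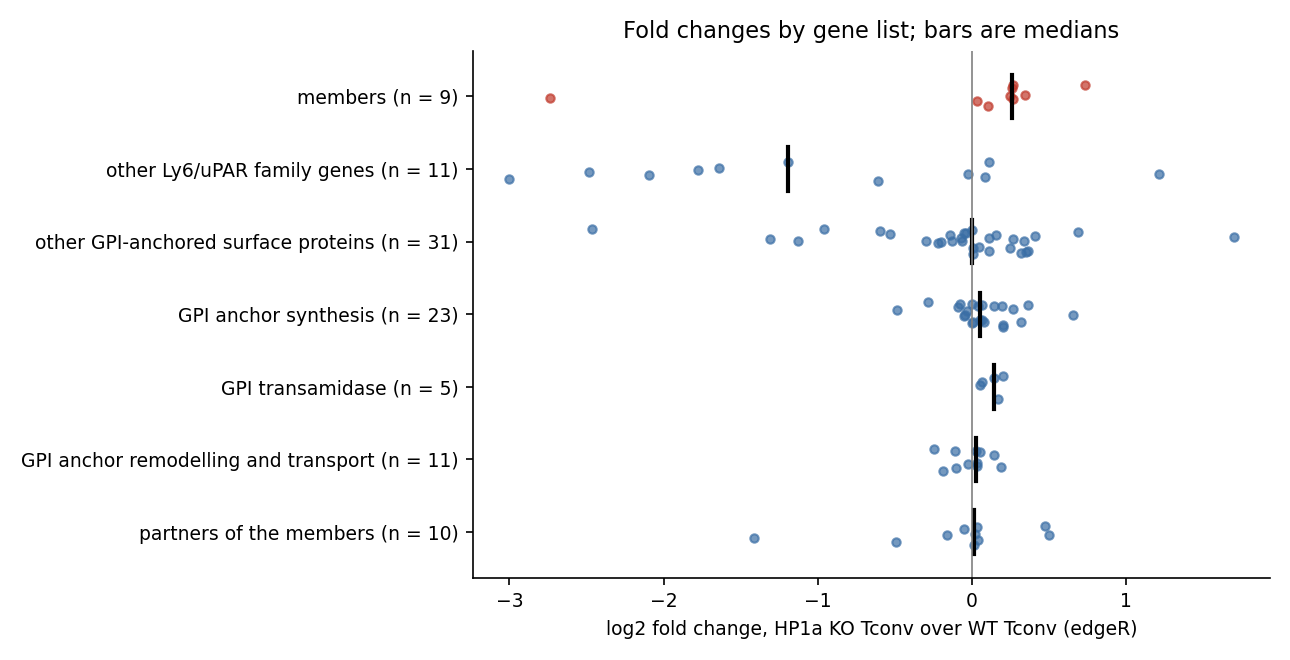
Log2 fold changes (HP1a KO Tconv over WT Tconv, edgeR) of the tested genes of each list, with medians as bars. The members, chosen with these values known, have a median of 0.26. That of the other Ly6/uPAR genes is -1.20, with 6 of 11 genes raised in WT Tconv replicate 3. The other lists have medians between -0.0028 and 0.14.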

How the data were processed

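Total RNA of 6 libraries of sorted Treg was sequenced with a stranded kit. The authors ran the nf-core RNA-seq pipeline, with alignment by STAR to GRCm39 (Ensembl annotation) and quantification by Salmon, and deposited estimated counts per gene, which are whole numbers and not normalized. Salmon shares reads between near-identical genes by a model, and the strand setting is not given in the sources used here. No per-sample column was left out.

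The 9 members, the gene lists and the tests were chosen with earlier results of these data known. Counts were normalized by TMM and tested with edgeR 4.0.16 (quasi-likelihood, robust) in R 4.3.3 after filterByExpr, with group as the sole term. DESeq2 1.42.0 was an alternative. Calls required an adjusted p under 0.05. CPM is the count over the TMM-scaled total times 1e+06. Genes named were all members, those called or among the 3 most abundant of each list, and Nt5e, P2rx7, Cd2, Ly6c2, Art2a and Foxp3; others are stated. Alternatives were RLE factors, unscaled totals, no filter, a replicate block and leaving out each library. DESeq2, the overlap of groups and the medians without WT Tconv replicate 3, and the share without Cd24a, were added after the data were seen. Positions, exon lengths and overlaps came from GENCODE on GRCm39, which matched 28854 identifiers. Near-identical transcripts were sought with BLAST (at least 95% over at least 100 bases). Promoters came from RefSeq (GRCm38.p6) and were placed on GRCm39 by exact match. Scripts were tested on simulated data.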

Additional observations from a re-analysis of the deposited data

How the results depend on the processing

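Estimated fold changes of the 9 members kept their sign and their side of the threshold in 101 of 108 comparisons with an alternative. In edgeR 0 genes were called. DESeq2 called 526 genes, among them 1 member, Ly6c1 (log2 fold change 0.73), 1 gene of GPI anchor synthesis and 2 partners of the members. edgeR without the filter called 38 genes, and with 1 library left out it called 0 to 2. DESeq2 without WT Tconv replicate 3, added after the data were seen, called 179 genes and 0 members. Among the genes called was 1 from the list of other GPI-anchored proteins, H60b, whose product is a transmembrane protein. In that fit the log2 fold change was -0.018 for Ly6e, 0.75 for Cd24a, 1.48 for Cd177, 0.55 for Ly6c2, -0.035 for Ly6k, 0.10 for Pigq, -0.055 for Art2a, -0.0039 for Foxp3 and 0.44 for Art4. The cause was not tested. With unscaled totals Bst2 was at 0.036. With the longest transcript, 5 of 9 members kept their rank of level per length.

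Leaving out each library in turn gave log2 fold changes of -0.022 to 0.12 for Ly6e, -3.27 to 0.76 for Cd24a, -0.047 to 0.23 for Ly6a, -2.64 to 1.48 for Cd177, -0.975 to 0.55 for Ly6c2, -0.11 to 0.27 for Ly6k, -0.70 to 0.10 for Pigq and -2.99 to 0.45 for Art4. The ranges were -0.13 to 0.076 for Bst2, -0.16 to 0.14 for Art2a, -0.14 to 0.19 for Foxp3, -0.13 to 0.0070 for Pigm, -0.017 to 0.094 for Tmed9 and -0.00098 to 0.065 for Cd2. For Tmed2 the range was -0.15 to -0.067, for Pigb 0.20 to 0.44 and for Pgap1 -0.32 to -0.13.

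Same-numbered libraries of the groups correlated in their deviations at -0.04, 0.18 and 0.12, so the numbers were not taken to pair the samples. With the replicate block edgeR called 1 gene and 0 members, and Art2a was at -0.0093 and Foxp3 at -0.024. It also moved Cd24a from -2.74 to -0.70, Cd177 from -2.09 to -0.21, Art4 from -2.46 to -0.97 and Ly6c2 from -0.61 to -0.19, all without a change of call. Depth limits genes with few counts such as Ly6m, which had 18 to 47 counts per library.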
